A study of Saccharomyces cerevisiae with 56 samples.

Results

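Mitochondrial ribosomal protein genes are nuclear genes of Saccharomyces cerevisiae whose products are made on cytosolic ribosomes, imported, and built into the large and small subunits of the ribosome inside mitochondria. That ribosome makes the few proteins encoded by mitochondrial DNA, most of them parts of the respiratory chain and of ATP synthase. Many of its subunits have counterparts in bacterial ribosomes and others are found in mitochondria alone. The mRNAs of many of these genes are known targets of Puf3, an RNA-binding protein of the Pumilio family, and in the yeast metabolic cycle (YMC) they belong to the genes expressed as cells divide and build mitochondria. The genes of cytosolic ribosomal proteins (RPL and RPS) and of ribosome biogenesis (ribi) belong to the growth genes of the cycle and are known to be repressed when nutrients run out.

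The members were the genes that are not dubious ORFs and whose symbol is MRPL, MRPS, RSM or MRP followed by a number. There were 66 of them among 6353 genes, with no measured value used in the choice. By textbook roles, 37 belong to the large subunit and 28 to the small subunit, while MRP8 carries the name but is not a ribosome subunit. Of the 66 genes, 40 have bacterial counterparts, 24 are specific to mitochondrial ribosomes, and RSM22 is a methyltransferase-like protein of the small subunit. None was among the genes that the authors marked as ribi. The genes lay on 14 chromosomes, all 66 matched a RefSeq gene of assembly R64, and their unmasked coding length ranged from 105 to 1779 bases with a median of 606. MRPL19 had 0 counts in every library because none of its positions was left unmasked, so 65 members could be measured, and these 65 passed the minimums on counts in every comparison below.

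The data are paired ribosome profiling and RNA-seq libraries of 28 samples. A CEN.PK culture (MATa) was sampled at 16 time points over 1 YMC, the oscillation between respiration and fermentation of a culture fed continuously, with cycloheximide (CHX), the drug that stops elongating ribosomes, added at harvest. Other strains were sampled while replete with amino acids and after 20 min without them, 1 sample each. All of these were MATa and shared 4 alleles, his3-{delta}1 and leu2-{delta}0, together with met15-{delta}0 and also ura3-{delta}0. BY4741 carried nothing further and was harvested both with and without CHX. The rest were harvested with CHX alone: yJW1861 (nop2::klNOP2 with NOP2 under PCCW12), yJW1862 (nop2::klNOP2 with NOP2 under PNOP2), yJW1863 (EGFP under PNOP2) and yJW1864, labelled dot6::LEU2 tod6::URA3 stb3::kanMX6. Harvest with CHX also meant collection by centrifugation, and harvest without it meant filtration, so the drug and the way of harvest cannot be told apart. BY4741, yJW1861, yJW1862 and yJW1863 with CHX served as 4 replicates of starvation, although they differ in genotype.

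Total counts on coding sequences ranged from 10133399 to 27429226 footprints and from 14537913 to 23693465 mRNA reads in the YMC, and from 3632217 to 20036606 footprints and 9648356 to 14773359 mRNA reads in the other samples. The genes that mark the strains were read to check the labels. In yJW1864, DOT6 had 4 mRNA counts in the replete sample and 9 in the starved one, and TOD6 had 1 and 0, but STB3 had 921 and 1062, within the range of 736 to 1624 in the other strains, and LEU2 had at most 1 mRNA count beside 17 and 895 footprints. The strain is therefore called yJW1864 as labelled, and the state of STB3 in it goes against its label. In BY4741 with CHX, MET17, the gene deleted as met15, had 148 and 255 footprints, while it had 0 in the footprint libraries of the other samples of these strains.

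In replete BY4741 without CHX, the 65 members had a median of 56.0 RPKM in mRNA, the reads on a gene scaled to its coding length and to the depth of the library. The cytosolic ribosomal protein genes had a median of 1559 RPKM and all genes one of 34.3 RPKM. Members lay between 22.65 and 227.9 RPKM, with the top value that of MRP8. In the footprint library of this sample, counts and RPKM matched the unmasked length in 2.3% of the genes checked, against 54.2% in its mRNA library. The reason was not tested, and the footprint and TE values of this sample carry that limit. Footprint levels had a median of 48.7 RPKM against 1875 for the cytosolic genes. The lowest level was that of RSM22 at 14.8 RPKM and the highest that of MRP8 at 269.1 RPKM. Members thus covered a modest range per length: translation efficiency (TE, footprint RPKM over mRNA RPKM) had a median of 0.932 and ran from 0.432 in MRPL51, a large subunit protein, to 2.30.

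Most proteins of the large subunit are present as a single copy per ribosome. In this sample, the footprint levels of the 36 measured large subunit genes varied less than their mRNA levels, with an SD of 0.352 on the log2 scale against 0.552, and their TE had an SD of 0.457. The 28 small subunit genes had the opposite order, 0.664 for footprints and 0.534 for mRNA, and over all 65 members the values were 0.591 and 0.597. The cytosolic ribosomal protein genes of this sample had the order of the large subunit, 0.919 for footprints and 1.069 for mRNA, so that order was not particular to it. For the large subunit the ratio of the 90th to the 10th percentile was 1.71 for footprints and 2.51 for mRNA. The order of the large subunit genes was not found in each of the other samples. In the replete samples with CHX, the SD of footprints was 0.492, 0.503, 0.472 and 0.476 in yJW1861, yJW1862, yJW1863 and yJW1864 as labelled, against 0.505, 0.499, 0.397 and 0.485 for mRNA. BY4741 with CHX stood apart from those strains, with an SD of 0.830 for footprints of the same genes and 0.433 for mRNA.

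Over the YMC, mRNAs of mitochondrial ribosomal proteins were high late in the cycle and while dissolved oxygen rose again, the phases the authors named RB and RB-RC, and low through the RC and OX phases, the long stretch of high oxygen and the burst of respiration that draws it down. The median of members, on the log2 scale relative to each gene's mean over 16 samples, was 0.71 at time point 1, 0.82 at time point 2 and 1.00 at time point 3 (0.42 h, 68.28% dissolved oxygen). It then dropped to -0.42 at time point 4 (1.1 h) and slowly to -0.74 at time point 10, and climbed back to 0.84 at time point 16 (4.25 h). Each of these values rests on 1 sample per time point, so they have no replicate check and carry no test. In a bulk culture, a change in the share of cells that express a gene and a change in RNA per cell cannot be told apart.

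The cytosolic ribosomal protein genes moved on another schedule. Their median in mRNA was 0.36 at time point 1, fell to -1.29 at time point 2 and -1.27 at time point 3, where members were highest, and rose through RC and OX to 1.18 at time point 11 (3.62 h, 47.28% dissolved oxygen), where members stood at -0.71. Genes marked ribi also had their top median at time point 11, at 1.73. At time points 14 to 16 both ribosomal families were above their means, with medians of 0.64 to 0.84 in members and 0.71 to 0.80 in the cytosolic genes. The 2 families were therefore apart at the entry into RC and at the end of OX, and together in the late part of the cycle. Both were low early in RC. At time point 4 members took 0.353% of mRNA reads on coding sequences and the cytosolic genes 1.25%, against 0.83% and 4.17% at time point 16.

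**Figure D1:**
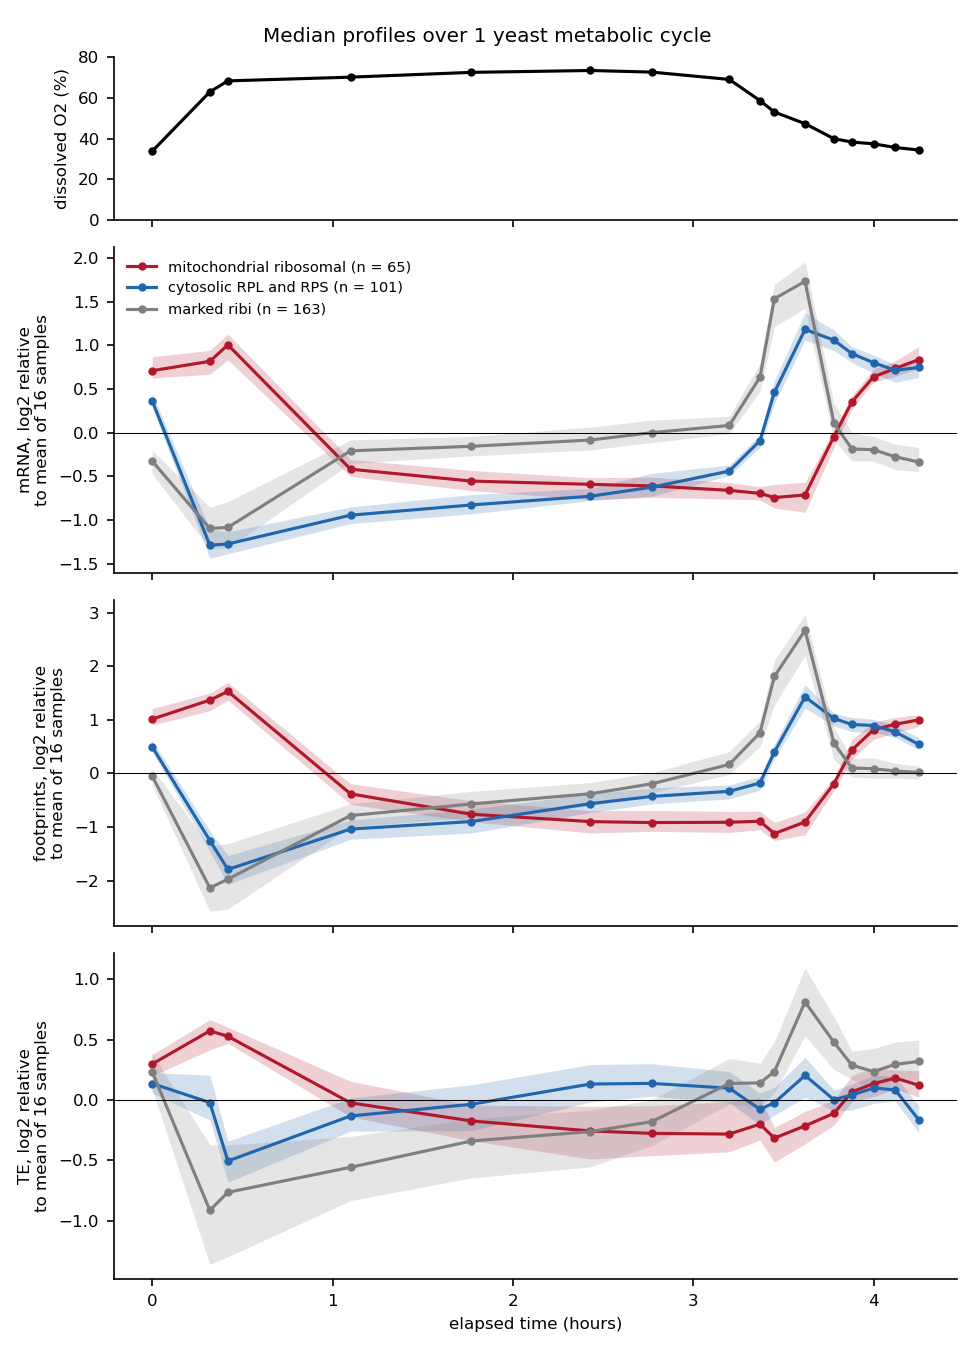
Dissolved oxygen (percent) and the median of mRNA, footprints and TE (log2 relative to each gene's mean over the 16 samples, after subtraction of the median of all genes) against elapsed time in hours, for 65 mitochondrial ribosomal genes, 101 cytosolic RPL and RPS genes and 163 genes marked ribi. Shaded bands run from the lower to the upper quartile of genes, and each time point is 1 sample. Members peak in mRNA at 1.00 at 0.42 h and the cytosolic genes at 1.18 at 3.62 h.

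The highest mRNA value of a gene fell at time point 2 or 3 in 53 of 65 members, against 24.6% of all 4839 genes compared and 0 of 101 cytosolic ribosomal protein genes. Of those 101, 81 were highest at time point 10 or 11. The place of the maximum within the high stretch depended on the scaling: without subtraction of the median of all genes, which moved between 5.15 and 5.48 log2 RPKM, 23 members were highest at time point 2 or 3 and 29 at time point 16. What did not move in any scaling run was the stretch itself. All 65 members were highest at time points 14 to 16 or 1 to 3 (41.9% of all genes), and all 65 were lowest at time points 5 to 11 (53.5% of all genes), with and without the subtraction and with TMM-scaled CPM.

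Footprints followed the mRNAs with a wider swing. Their median in members was 1.01, 1.37 and 1.53 at time points 1, 2 and 3, -0.38 at time point 4, -1.12 at time point 10 and 1.00 at time point 16. The highest value fell at time point 2 or 3 in 64 members, against 21.8% of all genes, and in 28 members without the subtraction. In the stretch from time point 14 to 3 the count was 65 (35.3% of all genes), and the lowest value lay at time points 5 to 11 in 65 (55.8% of all genes). Of the 101 cytosolic genes, 94 had their highest footprint value at time point 10 or 11 and 92 their lowest at time point 2 or 3.

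TE of members moved in the same direction as their mRNA. Its median was 0.57 at time point 2 and 0.53 at time point 3, fell to between -0.17 and -0.32 from time point 5 to 11, and was 0.12 at time point 16. TE was highest at time point 2 or 3 in 61 members (20.0% of all genes) and at time points 14 to 16 or 1 to 3 in 64 (29.5%). It was lowest at time points 5 to 11 in 61 (50.5%). The 4 members with another time of highest TE were MRP49 at time point 4, RSM19 at time point 15, RSM24 at time point 1 and RSM22 at time point 16, named here because they are the exceptions. Without subtraction of the median of all genes, time point 2 held the highest TE of 41 members, time point 3 that of 3 and time point 9 that of 3. The count of 61 and the list of exceptions therefore depended on the scaling. The cytosolic genes had a median TE of -0.51 at time point 3 and 0.20 at time point 11. Every YMC sample was harvested with CHX, and none without it. The authors link an apparent drop in the TE of ribi genes, in the YMC among other states, to CHX. The part of the drug in the mRNA, footprint and TE values of members over the YMC was not tested.

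**Figure D2:**
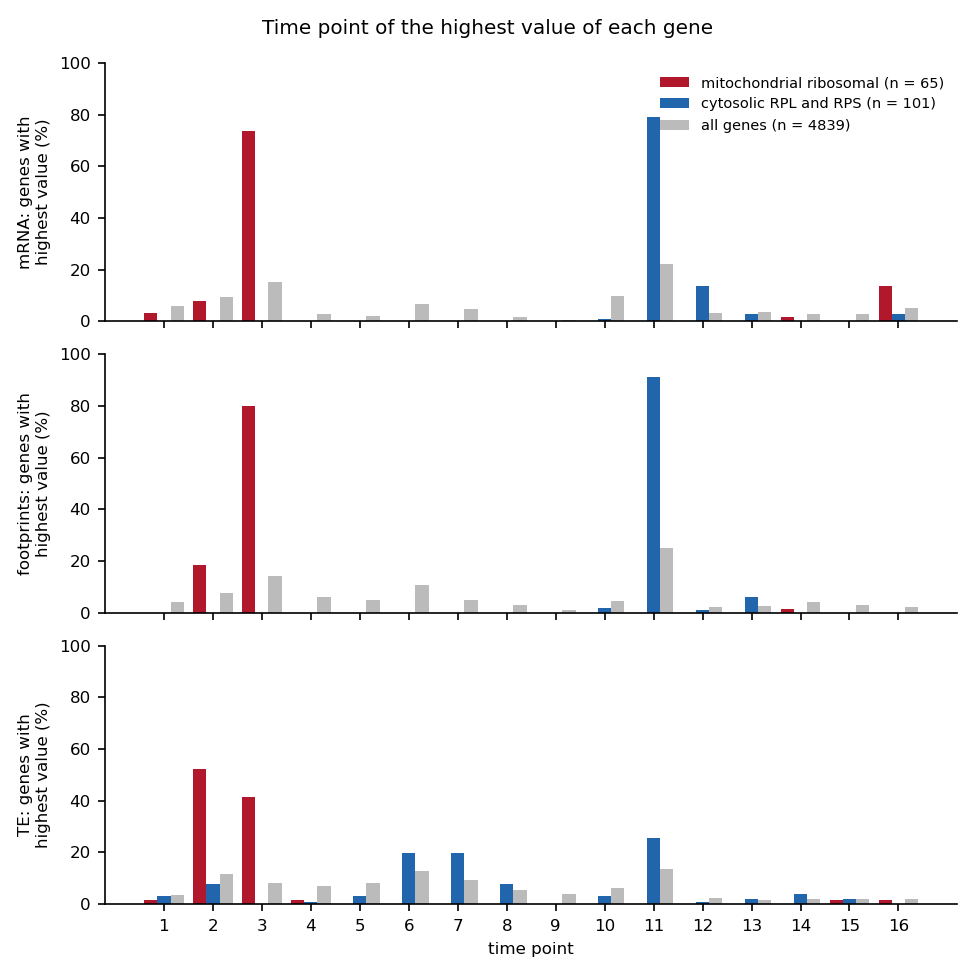
Percent of genes (vertical axis) whose highest mRNA, footprint or TE value in the YMC fell at each of the 16 time points (horizontal axis), for mitochondrial ribosomal genes, cytosolic RPL and RPS genes and all genes compared. In footprints, 64 of 65 members peak at time point 2 or 3 and 94 of 101 cytosolic genes at time point 10 or 11.

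The largest step between neighbouring time points was the fall from time point 3 to 4, which are 40.8 min apart. The median member dropped by 1.387 in mRNA, with 65 of 65 lower, by 1.942 in footprints, with 65 of 65 lower, and by 0.560 in TE, with 63 of 65 lower, all on the log2 scale. Over the same step the cytosolic ribosomal protein mRNAs rose by 0.311. The rise began between time points 11 and 12, 9.6 min apart, where the median member gained 0.666 in mRNA (65 of 65 higher), 0.684 in footprints and 0.113 in TE (43 of 65 higher). The members of both subunits moved together, with medians of -1.387 for large and -1.388 for small subunit mRNAs from time point 3 to 4.

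As a share of all reads on coding sequences, members took 0.261% of mRNA reads and 0.246% of footprints at time point 11, and 0.83% and 1.12% at time point 3. The cytosolic ribosomal protein genes took 5.22% and 8.44% at time point 11 and 0.999% and 0.847% at time point 3. At time point 3 the footprints on members therefore outnumbered those on the cytosolic genes. Of those 132 genes, 14 had no unmasked length that could be worked out from their counts. The median unmasked length of the other 118 was 72 bases.

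The fold range of members, highest over lowest sample, had a median of 3.69 in mRNA, 7.33 in footprints and 2.39 in TE. It was 6.10, 9.73 and 2.06 in the cytosolic genes and 2.63, 3.6 and 1.99 in all genes. A range of 4-fold or more was met in mRNA by 25 members (28.6% of all genes), in footprints by 65 (45.7% of all genes) and in TE by 0 (9.53% of all genes). With the second highest over the second lowest sample, the medians of members were 3.15, 5.82 and 1.92.

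Most members traced 1 shape. The mRNA profile of a member correlated with the median profile of the other members with a median Pearson r of 0.982 over 16 time points, and 62 of 65 had an r of 0.9 or more. In footprints the median r was 0.976, with 61 of 65 at 0.9 or more, and in TE it was 0.849, with 15 of 65. The points share libraries, and these values are descriptions. The mRNA profiles least like the rest were those of MRP8 (r = 0.132), RSM22 (0.755) and MRP20 (0.852), a large subunit protein.

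MRP8 had the widest mRNA range of the members, 9.22-fold, with 32.8 RPKM at its lowest, a median of 168.2 RPKM and 319.6 RPKM at its highest. Its relative level was 1.06 at time point 3 like that of other members, but it stayed between 0.46 and 0.76 from time point 4 to 8, where the others were below their means, and dropped to -2.15 at time point 11. RSM22 had the narrowest mRNA range, 1.99-fold, from 23.2 RPKM over a median of 32.2 RPKM to 53.3 RPKM, and was highest at time point 14. The 2 genes that are not structural subunits in the strict sense were thus at the 2 ends of the range.

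Among subunits, MRPL23, the counterpart of bacterial L13, had an mRNA range of 9.18-fold, with a lowest value of 29.3 RPKM, a median of 79.2 RPKM and a highest value of 284.3 RPKM. MRPL31 and MRPL50, both of the large subunit, followed with 8.92-fold and 6.12-fold. MRPL33, also of the large subunit, had a narrow mRNA range of 2.42-fold and one of the wider TE ranges, 3.40-fold, with TE between 0.379 and 1.51 around a median of 0.928. TE ranges were also wide in MRPS17, a small subunit protein (3.74-fold), and in MRPL49 (3.73-fold) and MRPL37 (3.20-fold), and narrow in MRP8 (1.53-fold) and MRPL23 (1.73-fold). MRP8 and MRPL23 thus had wide ranges in mRNA and narrow ones in TE, and MRPL33 the reverse.

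In starvation for amino acids, the mRNAs of mitochondrial ribosomal proteins changed little beside those of cytosolic ribosomal proteins. Across the 4 strains with CHX, the median member changed by -0.148 in mRNA, -0.228 in footprints and -0.102 in TE on the log2 scale in edgeR's quasi-likelihood fit, where the medians of all 5064 genes were 0.031, 0.056 and -0.042. Cytosolic ribosomal protein genes had medians of -2.07, -2.42 and -0.46 and genes marked ribi -1.77, -3.25 and -1.52. In mRNA 33 members fell and 6 rose at an adjusted p under 0.05 (38.1% of all genes fell and 42.1% rose). In footprints 28 fell and 5 rose (36.1% and 39.8%), and in TE 14 fell and 2 rose (25.3% and 15.8%). In each strain taken alone the median of members, relative to that of all genes, was -0.173 ± 0.031 in mRNA, -0.265 ± 0.124 in footprints and -0.054 ± 0.102 in TE (SD, n = 4). Without that subtraction the mRNA medians were -0.016, 0.052, -0.003 and 0.088 in BY4741, yJW1861, yJW1862 and yJW1863, a shift of 0.185 to 0.234, so the direction of the small mRNA change depended on the scaling. The falls of cytosolic ribosomal protein genes were far larger than that shift.

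The share of members that fell in mRNA, 33 of 65, was above the 38.1% of all genes, and the share that rose, 6 of 65, was far below the 42.1%. By subunit, 21 of 36 large and 12 of 28 small subunit genes fell in mRNA and 2 and 3 rose, whereas in footprints 12 large and 16 small subunit genes fell. By class, 14 of 24 mitochondria-specific and 18 of 39 genes with bacterial counterparts fell in mRNA. Of the calls, 31 falls and 6 rises in mRNA, 27 and 5 in footprints and 13 and 2 in TE had the same direction in 4 of 4 strains. The calls rest on the same 4 strains, so this agreement is largely set by the choice and is no separate support. Of the 3 measures, the TE calls of members were the least stable: 7 falls were left without yJW1861, 7 without yJW1862, 6 without yJW1863 and 12 without BY4741. A fit on fewer strains can lose calls in any gene, so these losses are not read as a trait of members.

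**Figure D3:**
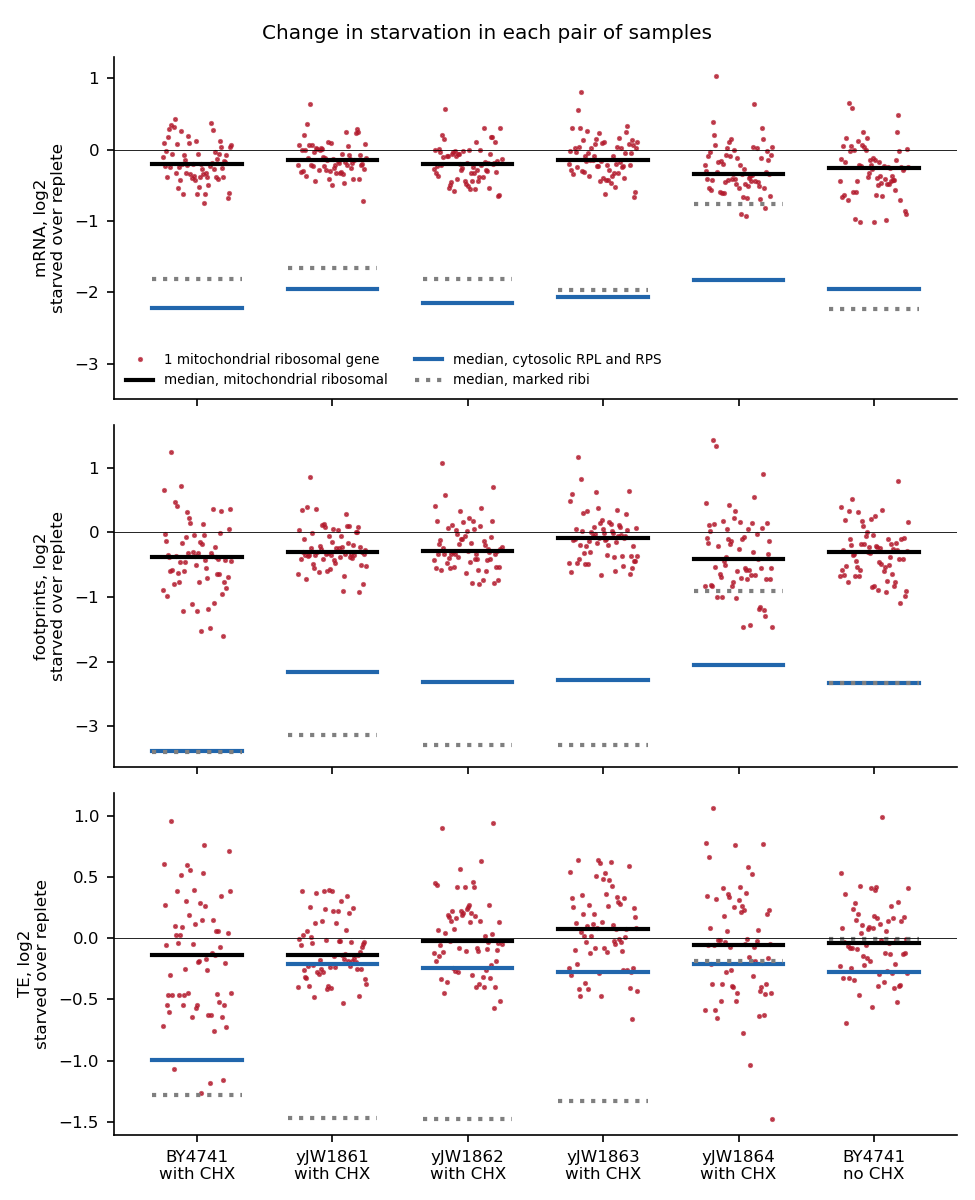
Log2 ratio of starved over replete (vertical axis, median of all genes subtracted) in mRNA, footprints and TE for each of the 6 pairs of samples. Points are the 65 mitochondrial ribosomal genes, black bars their median, and blue and dotted grey bars the medians of cytosolic RPL and RPS genes and of genes marked ribi. In mRNA the medians of members lie between -0.33 and -0.15 and those of the cytosolic genes between -2.22 and -1.82.

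RSM26, a superoxide dismutase-like protein of the small subunit (chromosome X, 618234 to 619034 in sacCer3), had the largest fall in mRNA. It had 80.5, 87.0, 88.1 and 75.9 RPKM in replete BY4741, yJW1861, yJW1862 and yJW1863 and 57.5, 60.8, 64.2 and 56.3 RPKM in the starved samples. The 2 groups did not overlap, and the change was -0.65 (SE 0.05, adjusted p = 1.4e-06 in edgeR). Its footprints changed by -0.63 (SE 0.10) and its TE by -0.01 (SE 0.10, adjusted p = 0.93). RSM27 and MRPL50 followed with -0.49 each and MRPL37 with -0.47. The fall of RSM27, a mitochondria-specific small subunit protein, was -0.26 in yJW1861 and between -0.63 and -0.59 in the other strains.

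MRP8 rose most in mRNA. Its levels were 234.3, 224.0, 223.5 and 173.0 RPKM in the replete samples and 358.7, 399.5, 379.8 and 355.8 RPKM in the starved ones, with no overlap. The change was 0.64 (SE 0.07, adjusted p = 1.3e-05 in edgeR), that in footprints was 0.71 (SE 0.10), and that in TE was 0.05 (SE 0.12, adjusted p = 0.77). MRP8 is the one gene of the list that is no ribosome subunit, and its mRNA profile was the least like the rest in the YMC. In starvation it was not alone, as the subunit genes MRP49, RSM18 and MRP7 were also called higher in mRNA. Leaving out MRP8 and RSM22 takes only these genes from the counts of the same fit, so it is no check of the other members.

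MRP49, a mitochondria-specific protein of the large subunit, rose in mRNA, footprints and TE. Its gene lies on chromosome XI from 133721 to 134134 in sacCer3, with 306 unmasked bases in the counts of BY4741. Its footprint levels were 30.5, 81.1, 60.6 and 60.6 RPKM in the replete samples and 91.3, 127.8, 158.9 and 177.6 RPKM in the starved ones, without overlap. The change was 0.99 in footprints (SE 0.15, adjusted p = 0.00017 in edgeR) and 0.40 in mRNA (SE 0.07). Its TE change was 0.56 (SE 0.17, adjusted p = 0.02), with 0.96, 0.06, 0.90 and 0.64 in the 4 strains, and this call was lost without BY4741, yJW1862 or yJW1863 (adjusted p of 0.067, 0.12 and 0.075).

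The other rises in mRNA were smaller. RSM18, the counterpart of bacterial S18, changed by 0.24 (SE 0.06), and its footprints by 0.17 (adjusted p = 0.15 in edgeR). MRP7, the counterpart of bacterial L27, changed by 0.23 in mRNA (SE 0.06) but by -0.37 in footprints (SE 0.11), and its TE fell by 0.63 (SE 0.12, adjusted p = 0.0016 in edgeR). In MRP7 the TE was 0.305, 0.600, 0.620 and 0.648 in the replete samples and 0.156, 0.467, 0.482 and 0.511 in the starved ones, where starved yJW1861, yJW1862 and yJW1863 lay above replete BY4741, although each strain fell. MRP7 was therefore a member whose mRNA and footprints moved apart.

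RSM22 had the largest fall in footprints and TE. Its footprint levels were 6.84, 17.4, 16.0 and 12.8 RPKM in the replete samples and 2.86, 11.1, 11.6 and 10.7 RPKM in the starved ones. Each strain fell although the groups overlap, and the change was -0.90 (SE 0.15, adjusted p = 0.00027 in edgeR). Its TE change was -0.64 (SE 0.15, adjusted p = 0.0061). MRPL8, the counterpart of bacterial L17, changed by -0.78 in footprints (SE 0.11), and MRPL40, the counterpart of bacterial L24, by -0.62 (SE 0.17). In both, BY4741 fell most, by 1.18 and 1.53, while the range in the other 3 strains was -0.80 to -0.60 for MRPL8 and -0.78 to -0.24 for MRPL40.

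Rises in footprints were found for MRP10 and MRPL16 too. MRP10, a small cysteine-rich protein of the small subunit, had 118.3, 136.1, 110.3 and 103.1 RPKM in footprints of replete and 234.9, 167.1, 183.1 and 189.9 RPKM of starved samples, a change of 0.43 (SE 0.12, adjusted p = 0.0085 in edgeR), with 0.03 in yJW1861. MRPL16, the counterpart of bacterial L16, changed by 0.40 (SE 0.11). The groups of MRP10 did not overlap in footprint level and those of MRPL16 did, although each strain rose. Their mRNA changes missed the threshold, at 0.06 (adjusted p = 0.42) and 0.15 (adjusted p = 0.075).

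In TE, MRP1, a mitochondria-specific small subunit protein, changed by -0.42 (SE 0.11, adjusted p = 0.0081 in edgeR), RSM24 by -0.40 (SE 0.11) and MRP4, the counterpart of bacterial S2, by -0.36 (SE 0.09, adjusted p = 0.0075). MRPL33 rose by 0.40 (SE 0.11, adjusted p = 0.013), with TE of 0.0962, 0.633, 0.686 and 0.934 in the replete and 0.135, 0.849, 0.972 and 1.56 in the starved samples. MRPL33 was higher in each strain after starvation, and the levels of BY4741 lay far below those of the others in both states. In BY4741 its footprint levels were 13.1 RPKM replete and 16.3 RPKM starved over 153 unmasked bases, so the starved value rests on few footprints. The counts of yJW1861, yJW1862 and yJW1863 cover 228 bases of this gene, and the part of that was not tested. The call of MRP1 was lost without yJW1861 (adjusted p = 0.055), that of MRP4 without yJW1862 (0.053), that of RSM24 without yJW1863 (0.086), and that of MRPL33 without yJW1862 (0.055) or yJW1863 (0.11).

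**Figure D4:**
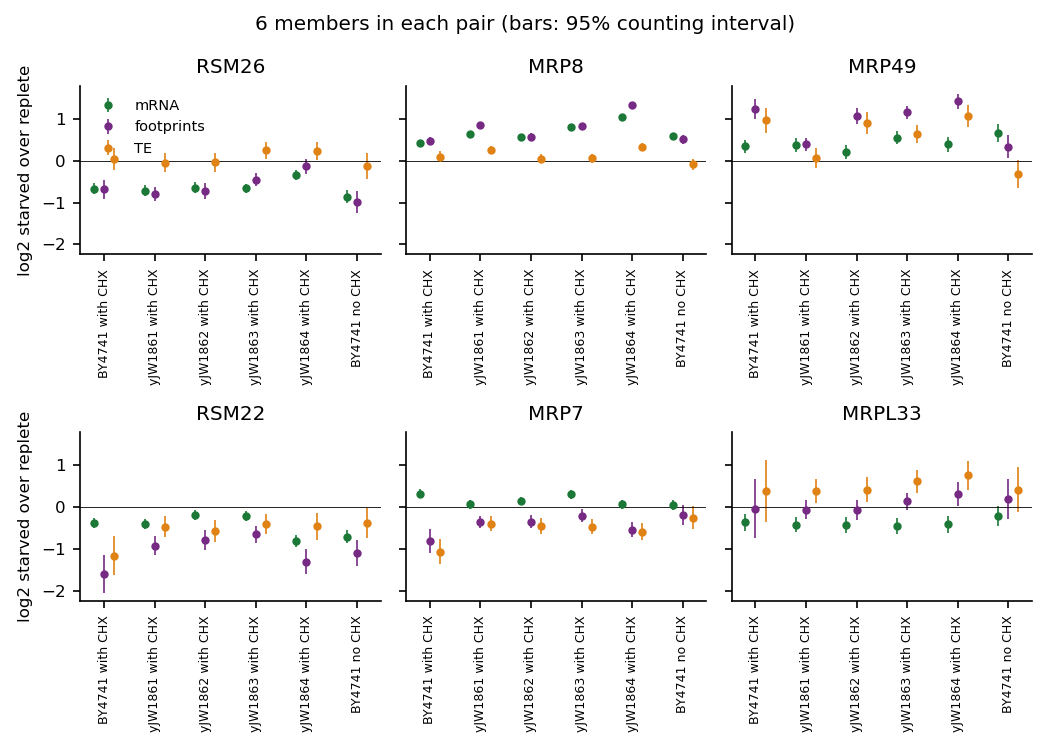
Log2 ratio of starved over replete (vertical axis, median of all genes subtracted) of RSM26, MRP8, MRP49, RSM22, MRP7 and MRPL33 in mRNA, footprints and TE for each of the 6 pairs of samples. Points are single pairs and bars the 95% counting interval, which leaves out the variation between cultures. The mRNA of MRP8 is higher after starvation in 6 of 6 pairs and that of RSM26 lower in 6 of 6, while the TE of MRP49 is -0.32 in BY4741 without CHX and between 0.06 and 1.06 in the other pairs.

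The TE change of members was set beside their coding length. Spearman's rho between the TE change and the unmasked length over 65 members was -0.444, -0.586 and -0.682 in yJW1861, yJW1862 and yJW1863, -0.417 in yJW1864 as labelled, -0.190 in BY4741 with CHX and -0.245 in BY4741 without CHX. Over all genes it was -0.279, -0.328, -0.231, -0.279, -0.056 and 0.030. Genes of 1 sample share libraries, so these are descriptions. Shorter members had the higher TE changes in the reporter strains and in yJW1864 as labelled, and the values of BY4741 were weaker with and without CHX. The counts of yJW1861, yJW1862 and yJW1863, unlike those of BY4741 and yJW1864, include 75 more bases of a coding sequence. That is a larger share of a short gene, and its part in these values was not tested.

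The members that fell or rose in mRNA in 1 pair tended to do so in the others. Over 65 members, the changes in mRNA of any 2 of the 6 pairs, which share no sample, correlated with a Pearson r between 0.637 and 0.839. For footprints r lay between 0.527 and 0.812, and for TE between 0.050 and 0.588. These are descriptions over genes that share libraries, and the ranges of mRNA and TE did not overlap.

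Without CHX, the single pair of BY4741 samples gave medians of members of -0.26 in mRNA, -0.31 in footprints and -0.04 in TE, beside -1.95, -2.34 and -0.28 for cytosolic ribosomal protein genes. The same medians in BY4741 with CHX were -0.20, -0.38 and -0.13 for members and -2.22, -3.38 and -0.99 for the cytosolic genes. For the cytosolic genes these were the lowest of the 4 strains with CHX. The highest medians of those strains were -1.95, -2.16 and -0.21, so the values of BY4741 do not stand for all strains with CHX. There is 1 sample a side, so no p is given for the pair itself. Without subtraction of the median of all genes, the medians of members without CHX were 0.017, 0.214 and 0.209, so their direction depended on the scaling. By 1 or more on the log2 scale, 2 members were lower in mRNA (12.4% of all genes) and 0 higher (7.59%), and in TE 0 were lower and 0 higher (1.57% and 1.42%).

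The 2 members past that size were MRPL20 and MRPL37. MRPL20, a mitochondria-specific large subunit protein, had 65.7 RPKM replete and 39.5 RPKM starved without CHX, and MRPL37 82.6 and 49.7 RPKM, a change of -1.01 in each after subtraction. With CHX, their changes were between -0.61 and -0.28 and between -0.61 and -0.40 in the 4 strains. MRPL8 followed with -0.98. The largest rises were those of MRP49 (0.66), MRP8 (0.59) and RSM18 (0.49), which had also risen in the strains with CHX. In TE the largest changes were those of MRPL51 (0.99), MRP10 (0.53) and MRPL20 (0.43) upward, and MRP21 (-0.69), MRPL35 (-0.57) and RSM10 (-0.52) downward.

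The difference between the response without CHX and that of the 4 strains with CHX was tested in edgeR, with the lone pair assumed to vary like the others. No member passed in mRNA, footprints or TE, with 0 lower and 0 higher in each, where 4.92% and 0.793% of 5044 genes were called in mRNA, 0.139% and 0.377% in footprints and 0.218% and 2.46% in TE. At an unadjusted p under 0.05 there were 10 lower and 1 higher members in mRNA, 1 and 2 in footprints and 0 and 2 in TE, where 676 and 400 of the 5044 genes passed in mRNA, 245 and 297 in footprints and 234 and 484 in TE. For genes marked ribi, 62 of 162 were higher in TE without CHX in the same test. A p that misses the threshold does not show that members respond alike with and without CHX.

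In yJW1864 as labelled, the medians of members were -0.33 in mRNA, -0.42 in footprints and -0.05 in TE, and those of genes marked ribi were -0.76, -0.91 and -0.19. Tested against the response of the 4 strains, 3 members were lower and 1 higher in mRNA (4.15% and 12.9% of 5060 genes), 2 were lower and 0 higher in footprints (2.83% and 10.0%), and 1 was lower and 0 higher in TE (0.217% and 2.92%). The shares of members lower in mRNA and footprints were near those of all genes. The response of yJW1864 as labelled rests on 1 pair with no replicate of its own, assumed to vary like the others, and without the replicate block 0 members were lower and 0 higher in each measure. In mRNA the members called were MRP21 (-0.62), MRPL17 (-0.54) and RSM22 (-0.51), and MRPS17 (0.45). In footprints they were RSM7 (-1.09), the counterpart of bacterial S7, and MRPS8 (-0.92), and in TE it was RSM7 (-1.12).

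RSM7 had the largest of these differences in value. Its TE changed by -1.48 in yJW1864 as labelled and by -0.45, -0.37, -0.05 and -0.43 in BY4741, yJW1861, yJW1862 and yJW1863, and its mRNA changed by 0.04 there. The TE call of RSM7 was lost without yJW1862 (adjusted p = 0.076 in edgeR) or yJW1863 (0.055). That of MRPS8 was lost without yJW1861, yJW1862 or yJW1863, and so was that of MRPS17 in mRNA. Those of MRP21, MRPL17 and RSM22 in mRNA held without each of the 4 strains in turn. Without BY4741, 10 members in place of 2 were lower in footprints and 2 higher. The shares of all genes without BY4741 are not given, so that count is no result about members apart from other genes. MRP8 rose by 1.04 in mRNA in yJW1864 as labelled.

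In BY4741, samples with and without CHX could be set side by side in each state, 1 sample a side. The replete footprint library without CHX is the one whose counts and RPKM matched in 2.3% of the genes checked. Relative to the median of all genes, members with CHX had medians of 0.15 in mRNA, -0.13 in footprints and -0.29 in TE in the replete state, and 0.22, -0.07 and -0.23 in the starved state. Without the subtraction they were 0.446, -0.648 and -1.094 in the replete and 0.453, -0.811 and -1.171 in the starved state. In TE, 10 members were lower with CHX by 1 or more on the log2 scale and 3 higher in the replete state (8.31% and 7.14% of all genes), and 14 were lower and 2 higher in the starved state (8.06% and 5.95%). Among the 10 were MRPL33 (-1.78), MRPL24 (-1.74), MRPL50 (-1.55) and MRP49 (-1.50), and the 3 were MRPL39 (1.96), MRPS12 (1.39) and MRPL8 (1.15), named for the size of their values.

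Few of these differences were met when other strains with CHX took the place of BY4741 with CHX. With yJW1861, yJW1862, yJW1863 or yJW1864 as labelled set against the same BY4741 sample without CHX, 0 members were lower by 1 or more in the replete state in each, and 1, 1, 2 and 0 were higher. The shares of all genes were smaller there too, at 1.59%, 1.66%, 1.57% and 2.04% lower and 1.36%, 1.53%, 1.44% and 0.743% higher, so the drop was not one of members alone. In the starved state 0, 0, 0 and 3 members were lower and 1, 2, 3 and 1 higher, beside 4.33%, 4.39%, 3.07% and 2.21% of all genes lower and 4.12%, 4.60%, 4.79% and 2.30% higher. MRPL33, at -1.78 with BY4741, was at 0.31, 0.47, 0.84 and -0.30 with the others in the replete state. MRPL24 kept its direction, with -0.85, -0.90, -0.78 and -0.96. These comparisons share the BY4741 sample without CHX. Strain and library differ in them as well, and so does the mask: the counts of yJW1861, yJW1862 and yJW1863 include 75 more bases of a coding sequence, in MRPL33 228 bases against 153 in BY4741 and yJW1864. The part of strain, library and mask was not tested.

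**Figure D5:**
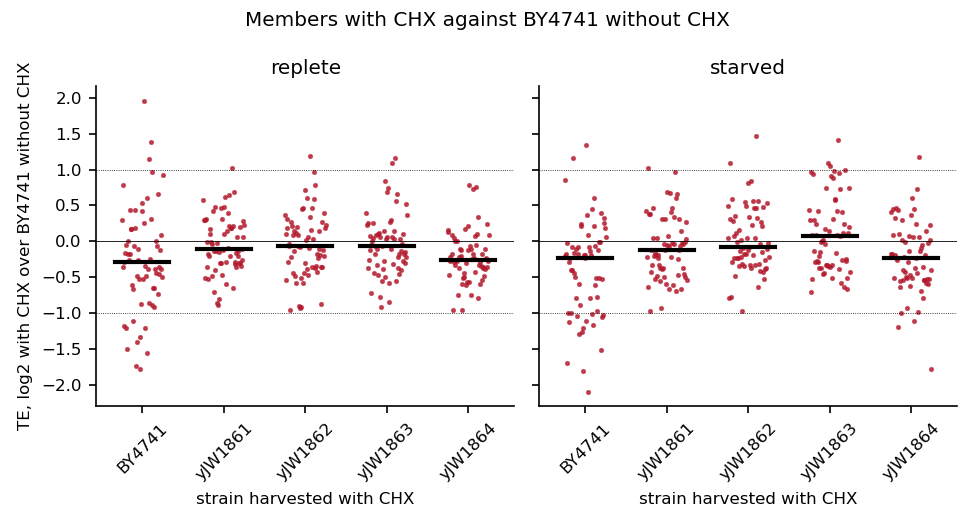
TE of the 65 members in each strain harvested with CHX over TE in BY4741 harvested without CHX (vertical axis, log2, median of all genes subtracted), replete and starved. Points are genes, black bars medians and dotted lines a difference of 1. In replete BY4741 with CHX 10 members lie below -1, and 0 do in each of the other strains.

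Genes that work with the mitochondrial ribosome did not all move with its proteins. Their counts in mRNA stand beside 38.1% of all genes that fell, 42.1% that rose and 24.6% that were highest at time point 2 or 3. Of 15 further mitochondrial ribosomal genes under other symbols, 7 fell and 0 rose in mRNA in the 4 strains, among them MNP1, a large subunit protein (-0.82), and IMG1 (-0.41), and 13 of 14 compared in the YMC had their highest mRNA at time point 2 or 3. Of 14 translational activators, which help single mitochondrial mRNAs to be translated, 0 fell and 10 rose, such as CBS1 (0.89) and PET494 (0.71), and 6 of 13 were highest at time point 2 or 3. Of 12 translation factors of mitochondria 5 were lower and 5 higher, near the shares of all genes. TUF1, the elongation factor, fell by 0.97. Of 7 assembly factors 3 fell, such as MAM33 (-0.79), and 4 rose, such as MRM1 (1.00), a methyltransferase of mitochondrial rRNA. Of 3 genes of mitochondrial transcription, 0 fell and 0 rose in mRNA at an adjusted or an unadjusted p under 0.05 in edgeR. RPO41, the mitochondrial RNA polymerase, changed by 0.01 in mRNA and fell by 0.92 in TE (adjusted p = 1e-05 in edgeR). PUF3 itself fell by 0.26 in mRNA, 0.66 in footprints and 0.43 in TE.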

How the data were processed

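Footprint reads and RNA-seq reads of each sample were processed by the authors with TopHat2 2.1.1 and Bowtie 1.1.2 on sacCer3, per the submitters' processing notes, and were counted on each coding sequence with positions that are not unique and both ends masked. The deposited values per gene are raw counts and RPKM, which the authors scaled to the unmasked length and the library total. In the footprint library of replete BY4741 without CHX, counts and RPKM matched that length in 2.3% of the genes checked. All footprint and TE ratios from RPKM that use this library carry that limit. The authors' YMC table gives dissolved oxygen as a percent and another column of elapsed hours. Coding lengths in the reporter strains hold 75 more bases than in the other strains, and 0 value columns were left unmatched. Molecular identifiers may not have been collapsed, so intervals cover counting error alone.

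From the deposited counts, edgeR 4.0.16 (R 4.3.3) was used with TMM factors, quasi-likelihood tests and Benjamini-Hochberg adjustment over all genes whose mean was 128 or more mRNA counts and 1 or more footprints. The strain was a block, since both samples of a strain came from 1 culture: their deviations from the group means correlated with r of 0.823, 0.63, 0.671 and 0.585 in mRNA and 0.764, 0.5, 0.477 and 0.546 in footprints. The highest r with another strain was as high for yJW1861 in mRNA (0.63) and higher for yJW1862 in footprints (0.545), so the pairing rests on the shared culture. A change in TE was the interaction of starvation with library type. The pair without CHX and that of yJW1864 were added as single pairs assumed to vary like the others. No other separate cultures replicate a condition. The fits were also run on simulated counts with the same variation set for every gene and no difference in response between strains. That run cannot show whether the single pairs vary like the others.

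From RPKM, log2 ratios of single pairs and YMC profiles were taken with the median of all genes subtracted (Python 3.11.15), for genes with 128 mRNA counts and 1 footprint in each sample, without p-values. RP denotes 132 genes with symbols RPL or RPS, a number and A, B or nothing. Alternatives were RLE factors, DESeq2 1.42.0, minimums of 32 footprints, no filter, no strain block, omission of each strain, no subtraction and TMM-scaled CPM. Leaving out time point 3 and setting other strains with CHX against BY4741 without CHX were chosen after seeing the data.

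The members and lists were chosen with earlier results of these data known. The named members were, by rule, the 4 largest called rises and falls of each test that had 1 direction in 4 of 4 strains, the widest 4 and narrowest 2 ranges of the YMC in mRNA and TE, the 3 largest changes each way without CHX, and MRP8, RSM22, MRP7 and MRP4, in all 26 genes. Coordinates are those of RefSeq assembly R64. Sequence features were not analysed here.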

Additional observations from a re-analysis of the deposited data

Results flagged for a closer look

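In 4 calls of members over the 4 strains with CHX, 1 strain lay apart from the other 3 by Dixon's criterion. There were 25 such tests, of named members and of the median of members in each measure, of which chance flags about 1 in 20. The mRNA change of RSM27 was -0.26 in yJW1861, against values from -0.63 to -0.59 in the other strains. The TE change of MRP7 was -1.06 in BY4741, against -0.47 to -0.39. The TE change of MRPL33 was 0.62 in yJW1863, against 0.39 to 0.42, and that of RSM24 was -0.66 in yJW1863, against -0.26 to -0.19.

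The starvation response of yJW1864 as labelled, 1 pair, differed from that of the 4 strains in edgeR's test of the difference for MRP21 (-0.62), MRPL17 (-0.54), RSM22 (-0.51) and MRPS17 (0.45) in mRNA, for MRPS8 (-0.92) and RSM7 (-1.09) in footprints and for RSM7 (-1.12) in TE. MRPS17 moved upward by 0.65 in that pair and by 0.06 to 0.31 in the 4 strains. The counts of STB3 in this strain go against its label, and the part of that in these differences was not tested.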

How the results depend on the processing

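Without the replicate block, the members that fell and rose numbered 19 and 4 in mRNA, 16 and 2 in footprints and 1 and 0 in TE, and in yJW1864 as labelled 0 and 0 in all 3 measures. DESeq2 gave 9 falls in TE. RLE factors gave 4 rises in TE and, for yJW1864, 0 rises in mRNA and 4 falls in footprints, and a minimum of 32 footprints gave 0 rises in mRNA there. With 1 strain left out, mRNA had 28 to 32 falls and 6 to 8 rises, footprints 23 to 28 and 4 to 8, TE 6 to 12 and 0 to 4, and the test of yJW1864 had 3 to 4 and 0 to 1 in mRNA, 1 to 10 and 0 to 2 in footprints and 0 to 1 and 0 to 1 in TE. The counts of 0 for the difference without CHX stayed at 0 to 0. No called member changed sign. These counts are of members alone, and the shares of all genes under the same settings are not given, so they are no result about members apart from other genes.

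Without subtraction of the median, medians of members in mRNA, footprints and TE were -0.016 and -0.038 (BY4741 with CHX, first 2 measures), 0.052 and -0.036 (yJW1861), -0.003 and 0.033 (yJW1862), 0.088, 0.305 and 0.202 (yJW1863), -0.141 and -0.232 (yJW1864) and 0.017, 0.214 and 0.209 (BY4741 without CHX). For CHX against none they were 0.446, -0.648 and -1.094 replete and 0.453, -0.811 and -1.171 starved. TMM-scaled CPM gave -0.235 in mRNA and -0.251 in TE (BY4741 with CHX), -0.297 in mRNA (without CHX), and 0.114 in mRNA and -0.183 in TE (CHX in the replete state). In the YMC, 23 members in mRNA and 28 in footprints were highest at time point 2 or 3 without the subtraction, and the TE range was 2.526. With TMM-scaled CPM the ranges of mRNA and TE were 3.437 and 2.482, by the second highest over the second lowest sample they were 3.151, 5.822 and 1.916 for mRNA, footprints and TE, and without time point 3 those of mRNA and footprints were 3.528 and 6.709. The members lower and higher in TE with CHX by 1 or more numbered 0 and 1, 0 and 1, 0 and 2, and 0 and 0 with yJW1861 to yJW1864 in the replete state and 0 and 1, 0 and 2, 0 and 3, and 3 and 1 in the starved state. The cause of these shifts was not tested.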
